A study of Homo sapiens with 12 samples.

Results

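The samples described here are Jurkat libraries with and without an induced short hairpin RNA (shRNA) against UTX, the product of KDM6A. They were chosen by their labels and comprise 2 libraries labelled UTX-control and 2 labelled UTX-KD, 4 of the 12 RNA-seq libraries of the series. Jurkat is a human line from T-cell acute lymphoblastic leukaemia that expresses the transcription factor TAL1. Both groups carried the same doxycycline-inducible hairpin against UTX and grew in the same medium with tetracycline-free serum, penicillin, streptomycin, blasticidin and another antibiotic whose name varies between the labels of single samples. UTX-KD cells received doxycycline at 5 µg/ml for 72 h and UTX-control cells received none. Every UTX-KD library thus combined doxycycline with hairpin induction and neither UTX-control library had either, so the agent and the hairpin cannot be told apart in these 4 libraries. Whether the line is a clone is not stated in the labels, and the labels do not say that the replicates were separate cultures, so p-values measure only the spread between these samples. A line with a doxycycline-inducible hairpin against TAL1, treated in the same way (TAL1-control without and TAL1-KD with doxycycline at 5 µg/ml for 72 h, 2 libraries each, with controls of its own), serves as the comparison for response differences.

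UTX is a demethylase of lysine 27 of histone H3 that acts within the MLL3 and MLL4 (KMT2C and KMT2D) complexes at enhancers, and its catalytic relatives are KDM6B (JMJD3) and the Y-linked UTY. Several gene programmes below belong to metabolic stress. When amino acids are short or mitochondria are disturbed, kinases that phosphorylate the initiation factor eIF2 lower general translation and favour translation of ATF4, a transcription factor of amino acid synthesis, transport and tRNA charging genes. Hypoxia-inducible factors (HIF) drive glycolytic genes, SREBP factors drive cholesterol and fatty acid synthesis, and E2F and FOXM1-MuvB factors drive replication and mitosis. As background on the agent, tetracyclines are known to inhibit mitochondrial translation.

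KDM6A (ENSG00000147050), the gene targeted by the hairpin, was at 30.9 and 31.3 CPM (counts per 1000000 counted reads after TMM scaling) in UTX-control replicates 1 and 2 and at 29.3 and 29.4 CPM in UTX-KD replicates 1 and 2. Its 2 groups did not overlap, which held for 73.9% of all tested genes. The log2 fold change of UTX-KD over UTX-control was -0.08 (SE 0.04), which did not pass the test (edgeR quasi-likelihood, adjusted p = 0.103). After correction for GC content and transcript length it was -0.0932 with an edgeR adjusted p of 0.0408. The libraries are therefore called the libraries labelled UTX-KD, here written UTX-KD, and no direction below is tied to the level of UTX. KDM6B was higher, at 124 and 129 CPM in UTX-control and 171 and 172 CPM in UTX-KD (log2 fold change 0.45, SE 0.03). UTY was also higher, at 31.05 and 31.8 CPM against 38.01 and 39.5 CPM (log2 fold change 0.30, SE 0.04), a change that did not pass when tested against a minimum of 1.2-fold. TAL1, the target of the other hairpin line, was at 254 and 252 CPM in UTX-control and 233 and 231 CPM in UTX-KD, a log2 fold change of -0.12 (SE 0.03) whose call was lost in the fit of all 12 libraries, and in its own line at -0.07 (SE 0.09), which did not pass the test.

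The 4 libraries held 59226636 to 82534711 counted reads and 24005 to 25124 genes with reads, and no gene of the mitochondrial chromosome was in the table. Of 29354 genes, 16847 passed the filter on low counts and were tested. UTX-KD was higher for 4240 of them (25.2%) and lower for 4269 (25.3%), 50.5% in either direction, with a median log2 fold change of 0.01 over all tested genes. Most of these changes were small: the median fold of the called genes was 1.23 among those higher and 1.19 among those lower, and 298 genes were at least 2-fold higher and 172 at least 2-fold lower. The biological coefficient of variation was 2.30%, and the UTX-KD and UTX-control libraries did not overlap in CPM for 73.9% of tested genes. Separate groups were thus common, and where given below for called genes they describe the values and add no support to the call. Against a minimum change of 1.2-fold (edgeR's glmTreat), 1201 genes were higher (7.13% of those tested) and 1073 lower (6.37%). Of the called genes that the naming rule picks out or the text describes, 41 did not pass that test, with log2 fold changes from -0.39 (EGLN3) to 0.34 (PSPH). The Wald test of DESeq2 gave 2776 higher (17.7%) and 3476 lower (22.1%), and a fit of all 12 libraries gave 3025 higher (16.4%) and 2450 lower (13.3%). Summed T-cell markers were at 2726 and 2780 CPM in UTX-control and 3141 and 3052 CPM in UTX-KD, with 6 of 8 tested markers higher. The sums of B-cell, myeloid, erythroid, NK-cell and epithelial or fibroblast markers lay between 0.280 and 58.9 CPM in every library. The B-cell sum was 40.5 and 41.5 CPM in UTX-control and 58.9 and 57.3 CPM in UTX-KD. Of its 6 genes 5 were under 1 CPM in all 4 libraries, and the 1 tested was higher (log2 fold change 0.51).

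**Figure D1:**
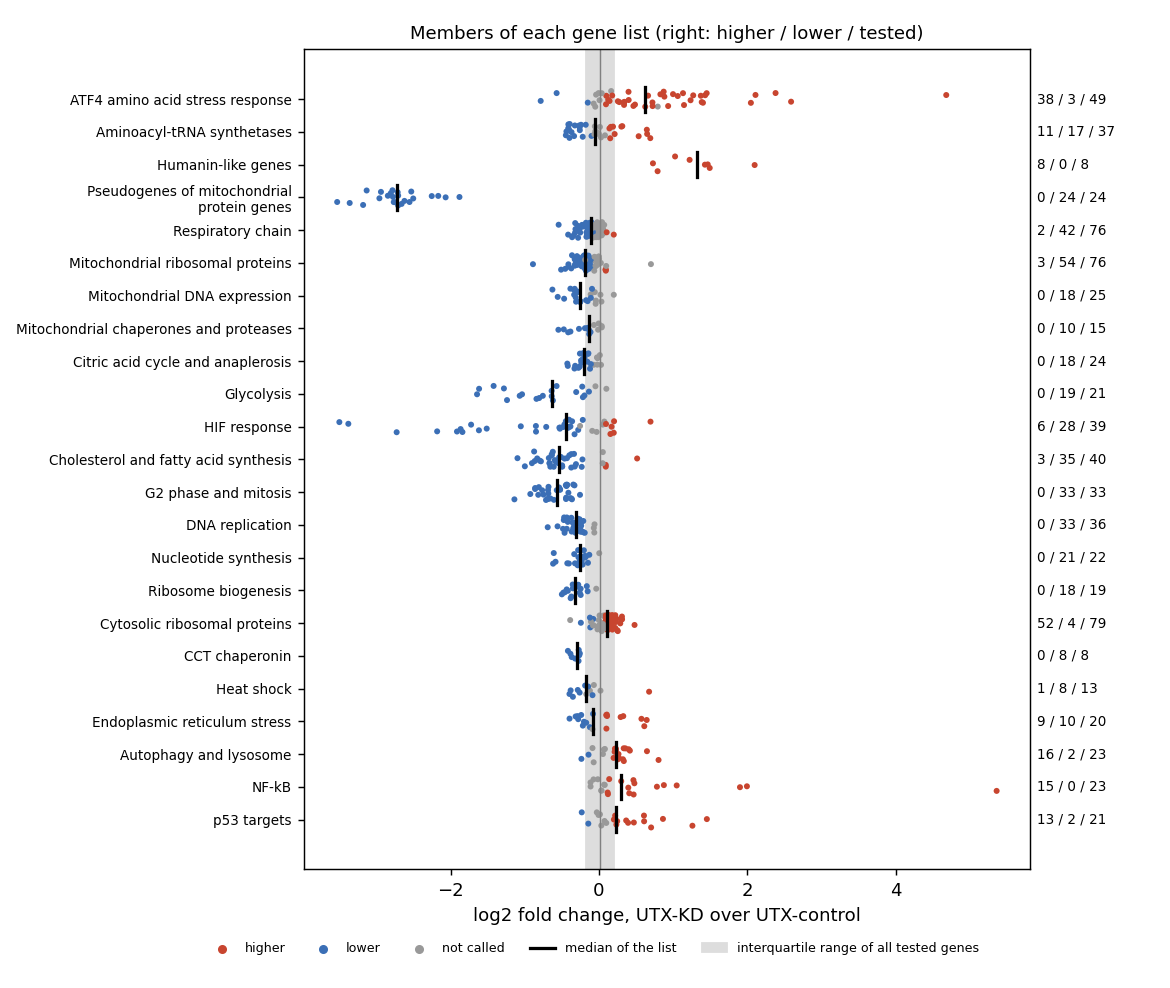
Log2 fold change of UTX-KD over UTX-control (x axis) for each tested gene (point) of 23 gene lists, red where higher, blue where lower and grey where not called, with the median of the list as a black bar and the interquartile range of all tested genes as a grey band. The ATF4, humanin-like and NF-kB lists lie mostly to the right, and the mitochondrial pseudogene, glycolysis, HIF, cholesterol and mitosis lists to the left.

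Genes of the ATF4 amino acid stress response rose as a group in UTX-KD. Of 52 genes on the list, 49 were tested, and 38 were higher against 25.2% of all tested genes, 3 were lower and 8 were not called. The median log2 fold change of the tested members was 0.62, against 0.01 for all tested genes. Among genes with a RefSeq promoter window (250 bases before to 50 after the start, GRCh38.p14), 13 of 41 list members (31.7%) held the C/EBP-ATF response element TGATGNAA on either strand, against 4.46% of all 27305 genes with a window. The list holds genes known for this response, so the excess may follow from how it was drawn up. The stretches below are shown because they hold that motif upstream of called members of different roles (an enzyme of amino acid synthesis, a redox enzyme, a hormone, a transcription factor and a carrier), and other members with a match, such as ATF3, are not printed; capitals mark the motif as read on either strand, and a match describes letters only. They lie upstream of ASNS (chr7:97872409-97872518, minus strand), CHAC1 (chr15:40953241-40953290, plus), FGF21 (chr19:48755444-48755503, plus), CEBPG (chr19:33374043-33374102, plus) and SLC1A5 (chr19:46784885-46784934, minus), each written 5′ to 3′ on the strand of its gene.
ASNS: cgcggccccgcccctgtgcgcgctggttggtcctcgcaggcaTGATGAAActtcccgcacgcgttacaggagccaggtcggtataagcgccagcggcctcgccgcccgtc
CHAC1: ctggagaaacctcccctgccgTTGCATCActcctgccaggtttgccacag
FGF21: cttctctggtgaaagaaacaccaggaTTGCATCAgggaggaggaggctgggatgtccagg
CEBPG: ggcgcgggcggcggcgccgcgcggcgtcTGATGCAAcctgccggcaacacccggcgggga
SLC1A5: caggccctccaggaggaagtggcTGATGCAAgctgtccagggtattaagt

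All 7 tested transcription factors and cofactors of the list were higher. ATF4 itself was at 461 and 467 CPM in UTX-control and 616 and 609 CPM in UTX-KD, a log2 fold change of 0.40 (SE 0.03). DDIT3 (CHOP), a stress-induced partner of ATF4, rose from 10.4 and 9.57 to 26.1 and 27.03 CPM, a log2 fold change of 1.40 (SE 0.05) with an adjusted p of 2.02e-12. In both genes the UTX-KD libraries lay above both UTX-control libraries, with replicates close together. Groups were separate in 73.9% of all tested genes. The dimerising factor CEBPG, whose promoter is shown above, was at 70.3 and 70.1 CPM against 90.3 and 94.9 CPM (log2 fold change 0.40, SE 0.03). ATF3 and ATF5, which act downstream of ATF4, had log2 fold changes of 1.27 (SE 0.05) and 1.24 (SE 0.04), and the pseudokinase TRIB3, a feedback inhibitor of ATF4, had one of 1.00 (SE 0.03). CEBPB rose from 26.9 and 26.3 to 48.6 and 49.6 CPM.

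The eIF2 kinases upstream of ATF4 moved little. EIF2AK1 (HRI), the kinase reached from mitochondria through DELE1, was lower at 282 and 287 CPM in UTX-control and 261 and 252 CPM in UTX-KD (log2 fold change -0.15, SE 0.03). EIF2AK4 (GCN2), the sensor of uncharged tRNA, was higher with a log2 fold change of 0.10 (SE 0.03), a call lost without UTX-control replicate 2, and EIF2AK2 (PKR) at -0.07 (SE 0.03), EIF2AK3 (PERK) at -0.04 (SE 0.04), DELE1 at 0.01 (SE 0.05) and OMA1 at 0.04 (SE 0.04) did not pass the test. PPP1R15A (GADD34), which directs the phosphatase that resets eIF2, rose from 19.9 and 21.6 to 43.1 and 47.7 CPM (log2 fold change 1.13, SE 0.05). These are transcript levels, and eIF2 phosphorylation was not measured.

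Among the 15 enzymes of amino acid synthesis and folate metabolism, 11 were higher and 1 was lower. ASNS (ENSG00000070669), asparagine synthetase, was at 13.9 and 12.4 CPM in UTX-control and 55.05 and 54.5 CPM in UTX-KD, a log2 fold change of 2.05 (SE 0.05). ASS1 (ENSG00000130707), argininosuccinate synthase of arginine synthesis, was at 33.9 and 36.7 CPM against 213 and 211 CPM, a log2 fold change of 2.59 (SE 0.04). For both enzymes each UTX-KD library was far above either UTX-control library. The serine pathway rose with them: PSAT1 from 262 and 255 to 466 and 480.5 CPM, PHGDH with a log2 fold change of 0.46 (SE 0.03) and PSPH with 0.34 (SE 0.04). The mitochondrial folate enzyme MTHFD2 rose from 343 and 337 to 519 and 529 CPM (log2 fold change 0.62, SE 0.03). GPT2, mitochondrial alanine aminotransferase, had a log2 fold change of 1.39 (SE 0.04) and CBS, of the transsulfuration pathway, 0.83 (SE 0.03). ALDH18A1, which starts proline synthesis in mitochondria, was the lower member, at 237 and 237 CPM in UTX-control and 162 and 157 CPM in UTX-KD.

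Of 10 tested amino acid transporters, 9 were higher. SLC6A9, a glycine carrier, rose from 2.15 and 2.01 to 10.9 and 10.9 CPM, a log2 fold change of 2.38 (SE 0.08). SLC7A11, the cystine carrier, rose from 9.46 and 9.28 to 23.8 and 26.9 CPM (log2 fold change 1.43, SE 0.06). SLC3A2, the heavy chain that SLC7A11 and SLC7A5 share, rose from 181 and 179.6 to 302 and 293 CPM (log2 fold change 0.72, SE 0.03). SLC1A5, a glutamine carrier whose promoter is shown above, had a log2 fold change of 0.72 (SE 0.03), SLC7A5 one of 0.26 (SE 0.03), and SLC38A1 with -0.0048 (SE 0.03) did not pass. Among the 9 regulators of growth, redox state and secreted factors, 8 were higher. The glutathione-degrading enzyme CHAC1 rose from 5.997 and 5.49 to 25.2 and 24.7 CPM (log2 fold change 2.11, SE 0.06), and SESN2, an inhibitor of mTORC1, from 19.8 and 20.4 to 55.3 and 54.5 CPM (log2 fold change 1.45, SE 0.04). STC2, a secreted glycoprotein, had a log2 fold change of 1.15 (SE 0.06). The hormone gene FGF21 had 0 CPM and 0.0175 CPM in the UTX-control libraries, the latter 1 read, and 0.233 and 0.229 CPM in UTX-KD. DDIT4 (REDD1), another mTORC1 inhibitor that is also a HIF target, went the other way, from 127 and 142 to 79.8 and 76.3 CPM (log2 fold change -0.78, SE 0.04).

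**Figure D2:**
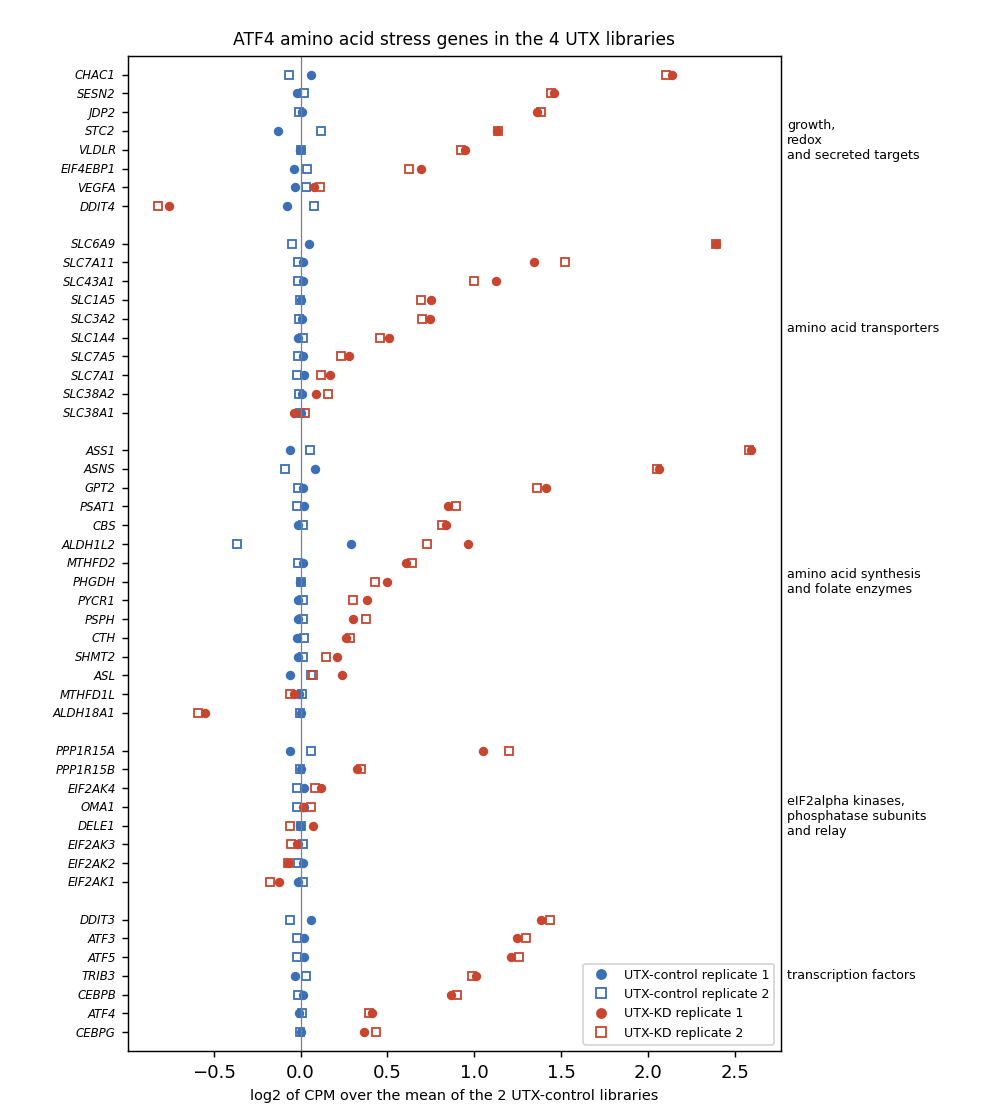
The x axis is the log2 of CPM over the mean of the 2 UTX-control libraries, for each of the 4 libraries (UTX-control blue, UTX-KD red, replicate 1 as circles and replicate 2 as open squares), for 48 of the 49 tested genes of the ATF4 list grouped by role; FGF21 is left out because 1 library held no read. The UTX-KD points of ASNS, ASS1, SLC6A9 and CHAC1 lie far to the right of 0, those of DDIT4 and ALDH18A1 to the left, and those of the eIF2 kinases near 0.

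The aminoacyl-tRNA synthetases, which charge tRNAs with amino acids, gave different counts for the cytosol and for mitochondria. Of 20 synthetases of the cytosol (some shared with mitochondria), 11 were higher (55%) and 6 lower (30%), with a median log2 fold change of 0.15. Of all tested genes 25.2% were higher and 25.3% lower. Of 17 mitochondrial synthetases none was higher and 11 were lower, with a median of -0.26; against a minimum change of 1.2-fold, 8 synthetases of the whole list of 37 were lower. AARS1, for alanine, rose from 296 and 294 to 473 and 453 CPM (log2 fold change 0.65, SE 0.03), CARS1, for cysteine, from 121 and 119.8 to 198 and 191 CPM (log2 fold change 0.69, SE 0.03), and SARS1, for serine, had a log2 fold change of 0.65 (SE 0.03). KARS1, EPRS1 and WARS1 had log2 fold changes of -0.04, 0.01 and 0.03 that did not pass. IARS2, the mitochondrial isoleucine enzyme, was at 217 and 219 CPM against 166 and 161 CPM (log2 fold change -0.41, SE 0.03), and SARS2 and LARS2 had log2 fold changes of -0.40 (SE 0.06) and -0.40 (SE 0.03). For AARS1, CARS1, SARS1 and IARS2 the groups did not overlap, as in 73.9% of all tested genes.

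Reads assigned to nuclear pseudogenes of mitochondrial protein genes were the most reduced group of all lists. These pseudogenes are near-identical copies of mitochondrial DNA in the nucleus, so reads counted for them may stem from mitochondrial transcripts; the authors' treatment of such reads is not given in the sources used here, and the values are uncertain as pseudogene levels. All 24 tested were lower, with a median log2 fold change of -2.73 and a range of -3.53 to -1.88. Their sum over 51 pseudogenes in the table was 19622 and 19101 CPM in UTX-control and 3162 and 2610 CPM in UTX-KD. MTCO2P12, a copy of the gene for cytochrome c oxidase subunit 2, was at 3212 and 3301 CPM against 388 and 331 CPM (log2 fold change -3.18, SE 0.05), and MTATP6P1, a copy of an ATP synthase gene, had a log2 fold change of -2.62 (SE 0.06). The humanin-like genes, nuclear copies of the mitochondrial large ribosomal RNA, moved in the other direction. All 8 tested were higher with a median log2 fold change of 1.33, and their sum rose from 341 and 366 CPM to 663 and 712 CPM. MTRNR2L12 was at 145 and 158 CPM in UTX-control and 299 and 319 CPM in UTX-KD, and MTRNR2L2 at 133 and 137 CPM and 214 and 232 CPM. Within the same libraries, copies of mitochondrial protein genes and copies of mitochondrial ribosomal RNA thus had opposite changes.

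Many nuclear genes that build and run mitochondria were lower, by smaller amounts. Among genes for replication, transcription and RNA processing of mitochondrial DNA, 18 of 25 were lower, against 25.3% of all tested genes, and none was higher (median log2 fold change -0.25). POLG, the DNA polymerase of mitochondria, was at 382 and 427 CPM in UTX-control and 271 and 253 CPM in UTX-KD (log2 fold change -0.63, SE 0.04). LRPPRC, which stabilises mitochondrial mRNAs, was at 183 and 180.4 CPM against 123 and 125 CPM (log2 fold change -0.56, SE 0.03). The packaging and transcription factor TFAM was at 103 and 101 CPM against 78.3 and 84.3 CPM (log2 fold change -0.33, SE 0.04), and NRF1, a nuclear activator of such genes, at 39.9 and 40.9 against 31.2 and 30.7 CPM (log2 fold change -0.38, SE 0.04). In these 4 genes both UTX-KD libraries lay below both UTX-control libraries, and groups were separate in 73.9% of all tested genes. POLRMT, the mitochondrial RNA polymerase, had a log2 fold change of 0.03 (SE 0.04) and did not pass.

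Of 76 mitochondrial ribosomal proteins, 54 were lower and 3 higher (median log2 fold change -0.18). MRPS28 was at 22.2 and 20.97 CPM against 12.2 and 11.1 CPM (log2 fold change -0.89, SE 0.06), and the 3 higher members, MRPS30, MRPL10 and MRPL49, had log2 fold changes of 0.09, 0.09 and 0.09, calls that each ended when a UTX-control library was left out. Among 76 nuclear genes of the respiratory chain, 42 were lower and 2 higher (median -0.10). By complex, against 25.3% of all tested genes, 18 of 37 genes of complex I were lower, 8 of 10 of complex III with cytochrome c, 12 of 15 of the ATP synthase and 2 of 4 of complex II. In complex IV 2 of 10 were lower (20%), a share below that of all genes, with a median log2 fold change of 0.0017. CYCS, cytochrome c, was at 139.8 and 141 CPM in UTX-control and 89.4 and 103 CPM in UTX-KD (log2 fold change -0.54, SE 0.05). The ring subunit gene ATP5MC1 had a log2 fold change of -0.41 (SE 0.03) and SDHA of complex II one of -0.32 (SE 0.03), while NDUFA13 was higher at 0.20 (SE 0.04). Citric acid cycle and anaplerosis genes followed with 18 of 24 lower (median -0.20), FH among them at 153 and 154 CPM against 118 and 111 CPM. Of mitochondrial chaperones and proteases 10 of 15 were lower (median -0.13), with HSPD1 (HSP60) at 1139 and 1118 CPM against 813 and 813 CPM and its partner HSPE1 (HSP10) at a log2 fold change of -0.55 (SE 0.03). These changes were mostly small: against a minimum of 1.2-fold, where 6.37% of all tested genes were lower, the lower members numbered 5 of 25 for mitochondrial DNA expression, 6 of 76 for mitochondrial ribosomal proteins, 4 of 76 for the respiratory chain, 3 of 24 for the citric acid cycle and 4 of 15 for chaperones and proteases. At that threshold the shares for mitochondrial ribosomal proteins and the respiratory chain were near that of all genes. In the fit of all 12 libraries 33 mitochondrial ribosomal protein genes, 16 respiratory chain genes and 6 chaperone and protease genes were lower, against 13.3% of all genes tested there.

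**Figure D3:**
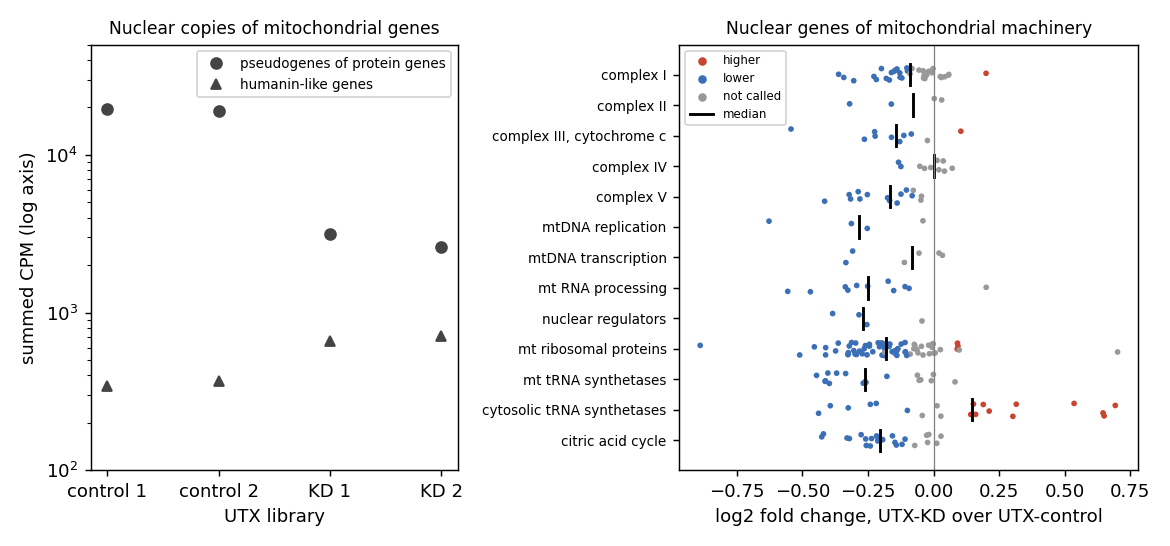
Left, summed CPM on a log axis of nuclear pseudogenes of mitochondrial protein genes (circles) and humanin-like genes (triangles) in each UTX library; right, log2 fold changes of nuclear genes of mitochondrial machinery by role, with medians as bars. The circles fall from 19622 and 19101 CPM to 3162 and 2610 CPM while the triangles rise, and on the right the synthetases of the cytosol have a median of 0.15 while most other medians lie below 0.

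Glycolysis was lower along nearly its whole length in UTX-KD. Of 21 tested genes, 19 were lower against 25.3% of all tested genes and none was higher, with a median log2 fold change of -0.64. Their sum was 17573 and 18684 CPM in UTX-control and 11847 and 11466 CPM in UTX-KD. HIF targets beyond glycolysis were also lower: of 39 tested members of that list, 28 were lower and 6 higher (median -0.45). The core of the hypoxia response element, ACGTG on either strand (read on both strands in CACGTG), was found in the promoter windows of 12 of 19 glycolysis genes (63.2%) and 21 of 34 HIF list genes (61.8%), against 24.9% of all genes with a window. The stretches below are shown for members with large decreases, with ACGTG or its reverse complement in capitals. They are upstream of LDHA (chr11:18394363-18394502, plus strand), AK4 (chr1:65147437-65147486, plus), BNIP3 (chr10:131982029-131982078, minus), MIR210HG (chr11:568598-568647, minus) and ALDOC (chr17:28576896-28576955, minus), on GRCh38.p14 and 5′ to 3′ on the strand of each gene.
LDHA: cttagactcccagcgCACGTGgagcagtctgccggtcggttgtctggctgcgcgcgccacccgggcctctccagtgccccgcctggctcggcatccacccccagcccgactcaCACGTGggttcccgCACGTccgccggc
AK4: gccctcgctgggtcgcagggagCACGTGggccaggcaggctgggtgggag
BNIP3: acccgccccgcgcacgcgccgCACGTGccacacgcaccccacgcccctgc
MIR210HG: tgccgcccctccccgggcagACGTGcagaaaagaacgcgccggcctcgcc
ALDOC: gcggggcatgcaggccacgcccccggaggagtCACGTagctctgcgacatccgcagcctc

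At the entry of the pathway, the glucose carrier SLC2A1 (GLUT1) was at 117 and 135 CPM in UTX-control and 54.4 and 51.98 CPM in UTX-KD (log2 fold change -1.24, SE 0.05), and hexokinase HK2 at 114 and 124 CPM against 49.3 and 48.3 CPM (log2 fold change -1.28, SE 0.04). SLC2A3 (GLUT3), at 12.2 and 15.03 CPM against 12.8 and 13.3 CPM, overlapped between the groups and was not called, although it was called lower without UTX-control replicate 1 (log2 fold change -0.20). The aldolase genes differed in size of change, with log2 fold changes of -0.84 (SE 0.04) for ALDOA and -1.64 (SE 0.07) for ALDOC. Triosephosphate isomerase TPI1 fell from 694 and 761 to 352 and 342 CPM (log2 fold change -1.07, SE 0.04) and PGK1 from 1175 and 1268 to 706 and 692 CPM (log2 fold change -0.80, SE 0.04). Lower down, ENO1 fell from 2266 and 2463 to 1182 and 1123 CPM (log2 fold change -1.04, SE 0.04) and the pyruvate kinase gene PKM from 1881 and 1987 to 1171 and 1118 CPM (log2 fold change -0.76, SE 0.04). In these 4 genes the lowest UTX-control library exceeded the highest UTX-KD library by more than the gap between replicates. GAPDH fell less, from 5075 and 5306 to 4257 and 4139 CPM (log2 fold change -0.31, SE 0.04), a change that did not pass against a minimum of 1.2-fold. At the exit, LDHA, which makes lactate, fell from 1449 and 1570.3 to 559 and 570.0 CPM (log2 fold change -1.42, SE 0.04), LDHB had a log2 fold change of -0.19 (SE 0.03), and the lactate exporter SLC16A3 (MCT4) fell from 32.5 and 42.2 to 12.1 and 12.01 CPM (log2 fold change -1.62, SE 0.09).

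The HIF subunits themselves did not fall. HIF1A was at 145 and 144 CPM in UTX-control and 165 and 168 CPM in UTX-KD (log2 fold change 0.20, SE 0.03), and EPAS1 (HIF-2 alpha) rose from 7.47 and 7.43 to 12.3 and 11.8 CPM (log2 fold change 0.70, SE 0.06). HIF is regulated mainly through protein stability, which was not measured. The prolyl hydroxylase genes EGLN1 and EGLN3, which are both HIF targets and HIF's inhibitors, had log2 fold changes of -0.85 (SE 0.05) and -0.39 (SE 0.07). All 9 metabolic targets were lower. AK4 (ENSG00000162433), an adenylate kinase of mitochondria, was at 17.3 and 23.1 CPM in UTX-control and 1.95 and 1.58 CPM in UTX-KD (log2 fold change -3.50, SE 0.14). PFKFB4, which sets the level of an activator of phosphofructokinase, fell from 54.9 and 69.2 to 13.6 and 13.6 CPM (log2 fold change -2.18, SE 0.08), and PDK1, which restrains pyruvate dehydrogenase, from 102 and 115.1 to 51.9 and 52.7 CPM (log2 fold change -1.05, SE 0.04). The UTX-control libraries of these 3 genes lay well apart from the UTX-KD libraries, with replicate 2 the higher control in each. The mitophagy receptors BNIP3 and BNIP3L had log2 fold changes of -1.84 (SE 0.06) and -0.71 (SE 0.05), the former from 83.4 and 98.04 to 26.4 and 24.1 CPM. MIR210HG, host transcript of the hypoxia microRNA miR-210, fell from 17.3 and 21.5 to 1.99 and 1.71 CPM (log2 fold change -3.38, SE 0.11), and the secreted peptide gene ADM from 8.07 and 11.4 to 1.52 and 1.36 CPM (log2 fold change -2.73, SE 0.15). The repressor BHLHE40 fell from 39.2 and 45.6 to 12.3 and 13.3 CPM (log2 fold change -1.72, SE 0.07), and the histone demethylase KDM3A had a log2 fold change of -0.33 (SE 0.03). VEGFA, shared with the ATF4 list, was higher at 0.10 (SE 0.03), a call lost without UTX-control replicate 1 or UTX-KD replicate 2. UTX-control replicate 2 was above replicate 1 for 34 of 39 HIF list genes and 18 of 21 glycolysis genes, against 50.1% of all tested genes. Without UTX-control replicate 2, 28 HIF list genes and 18 glycolysis genes were lower.

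**Figure D4:**
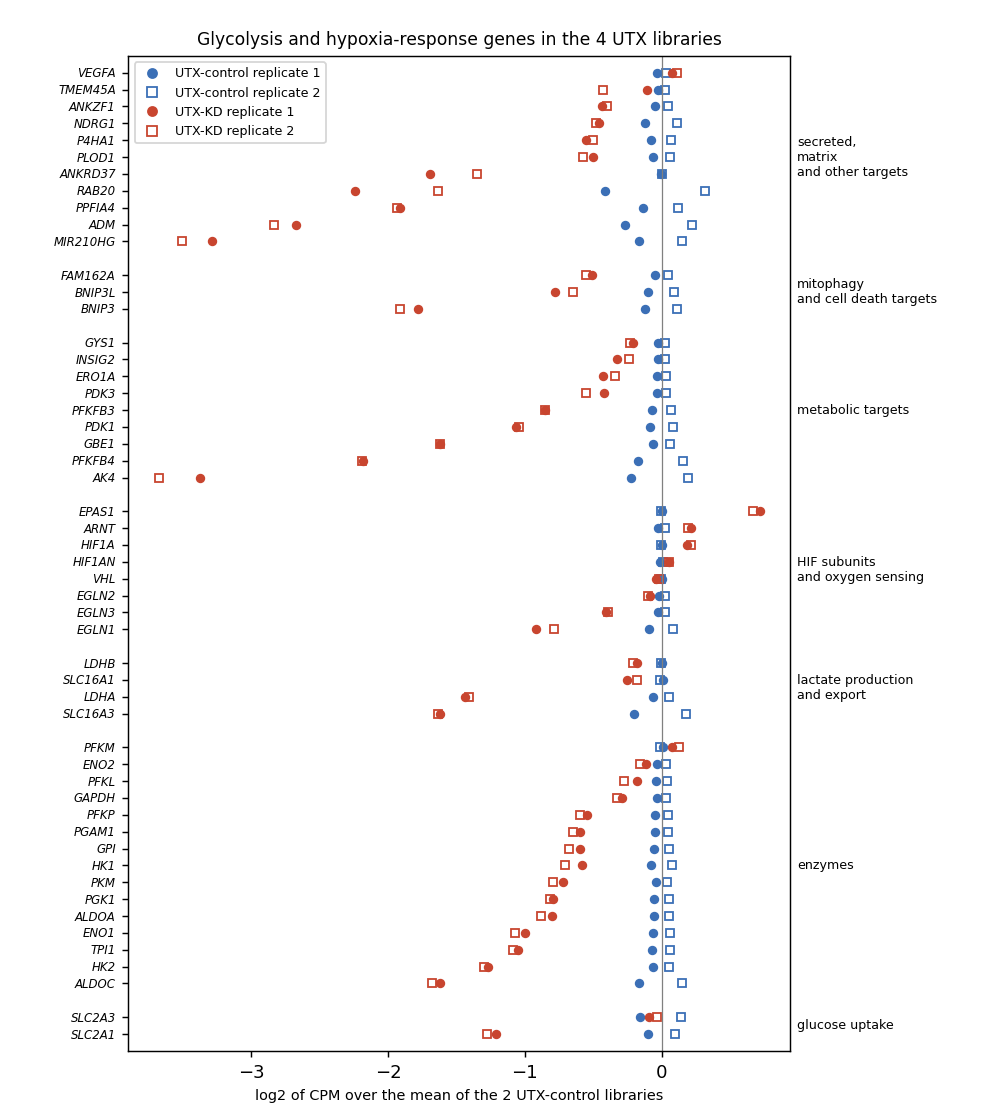
The x axis is the log2 of CPM over the mean of the 2 UTX-control libraries, for each UTX library (UTX-control blue, UTX-KD red, replicate 1 as circles and replicate 2 as open squares), for glycolysis genes and HIF list members by role, without the transcription and chromatin targets. UTX-KD points lie left of UTX-control points for most genes, by most for AK4, MIR210HG and ADM, and to the right for HIF1A, ARNT and EPAS1.

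Cholesterol and fatty acid synthesis fell together. Of 40 tested genes, 35 were lower, against 25.3% of all tested genes, and 3 higher, with a median log2 fold change of -0.53. All 8 genes of the mevalonate steps were lower, as were 10 of 11 of the sterol steps and 8 of 9 of fatty acid synthesis. HMGCS1, which makes HMG-CoA, fell from 827 and 807 to 376 and 387 CPM (log2 fold change -1.10, SE 0.03). SQLE, which oxidises squalene, fell from 277 and 280.1 to 177 and 175 CPM (log2 fold change -0.66, SE 0.03), and DHCR7, of the last sterol step, from 285 and 298 to 211 and 202 CPM (log2 fold change -0.50, SE 0.03). In these 3 genes the groups were separate, as in 73.9% of all tested genes, and replicates nearly equal. On the fatty acid side, FASN fell from 815 and 807 to 417 and 395 CPM (log2 fold change -0.998, SE 0.03) and the desaturase SCD from 957 and 986 to 527 and 512 CPM (log2 fold change -0.90, SE 0.03), while ACLY, which supplies acetyl-CoA, had a log2 fold change of -0.50 (SE 0.03). The regulators SREBF1 and SREBF2 were lower at -0.63 (SE 0.03) and -0.33 (SE 0.03), and INSIG1, which retains SREBP in the endoplasmic reticulum, fell from 767 and 780.1 to 482 and 492 CPM. The sterol regulatory element TCACNCCAC, searched on either strand, was in the promoter windows of 1 of 33 genes of the list (3.03%), against 1.39% of all genes with a window. NR1H2 (LXR beta), SCAP and NPC1 were the higher members, with log2 fold changes of 0.52 (SE 0.04), 0.09 (SE 0.04) and 0.09 (SE 0.03). SCAP lost its call without UTX-control replicate 1 or UTX-KD replicate 1, and NPC1 without either UTX-control replicate or UTX-KD replicate 1.

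All 33 tested genes of the G2 phase and mitosis were lower, against 25.3% of all tested genes, with a median log2 fold change of -0.57 and a range of -1.14 to -0.26. Of 36 replication genes, 33 were lower and none was higher (median -0.31), 15 of them against a minimum change of 1.2-fold, where 6.37% of all tested genes were lower. In bulk RNA, fewer cells in a phase and less RNA per cell cannot be told apart. The cell cycle genes homology region core TTTGAA, searched on either strand, was in 18 of 27 mitosis windows (66.7%) against 18.2% of all, and the E2F site TTTNGCGC in 14 of 30 replication windows (46.7%) against 2.17% of all. They are shown, in capitals, upstream of 4 mitotic genes, PLK1 (chr16:23678829-23678888, plus strand), CCNB2 (chr15:59105086-59105145, plus), BUB1B (chr15:40161009-40161068, plus) and HMMR (chr5:163460572-163460631, plus), where they lie close to the start, and of the helicase gene MCM6 (chr2:135876514-135876603, minus), where overlapping matches on both strands fill each capital run; build and orientation are as above.
PLK1: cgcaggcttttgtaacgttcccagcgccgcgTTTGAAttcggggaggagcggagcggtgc
CCNB2: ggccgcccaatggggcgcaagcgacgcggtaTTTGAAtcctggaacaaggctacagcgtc
BUB1B: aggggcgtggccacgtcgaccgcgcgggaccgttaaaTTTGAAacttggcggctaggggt
HMMR: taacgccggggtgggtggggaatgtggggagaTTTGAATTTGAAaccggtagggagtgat
MCM6: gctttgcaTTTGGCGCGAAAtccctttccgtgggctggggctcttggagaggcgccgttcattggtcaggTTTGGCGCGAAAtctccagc

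CCNB1, cyclin B1 of mitotic entry, had the lowest fold change of the mitosis list, at 265 and 255 CPM in UTX-control and 121 and 115.5 CPM in UTX-KD (log2 fold change -1.14, SE 0.03). The mitotic kinase PLK1 fell from 236 and 230.4 to 128 and 118 CPM (log2 fold change -0.92, SE 0.04), and HMMR, of the spindle, from 162 and 162 to 87.9 and 90.4 CPM (log2 fold change -0.86, SE 0.03). Neither PLK1 nor HMMR had overlapping groups, as was so for 73.9% of all tested genes. The checkpoint kinase gene BUB1B had a log2 fold change of -0.44 (SE 0.03), CCNB2 -0.69 (SE 0.03) and the activator FOXM1 -0.41 (SE 0.03). In replication, the helicase factor GINS1 fell from 111 and 109 to 69.4 and 66.9 CPM (log2 fold change -0.69, SE 0.03) and the MCM helicase genes MCM4 and MCM6 had log2 fold changes of -0.47 (SE 0.03) and -0.26 (SE 0.03). CDT1, RPA2 and POLD3 were not called. The G1 list was mixed, with 5 of 21 higher (23.8%, near the 25.2% of all tested genes) and 10 lower (47.6%, against 25.3%). CCND2 rose from 4.65 and 4.60 to 7.604 and 7.497 CPM (log2 fold change 0.71, SE 0.08), and CDK6 fell from 3063 and 3013 to 2547 and 2670.3 CPM (log2 fold change -0.22, SE 0.03). The inhibitor CDKN1A (p21) was at 7.10 and 6.90 against 7.89 and 8.24 CPM (log2 fold change 0.20, SE 0.07), a call lost without UTX-control replicate 2 or UTX-KD replicate 2 and by the Wald test of DESeq2.

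Supply genes of growth fell with the cell cycle genes. Of 22 nucleotide synthesis genes, 21 were lower, against 25.3% of all tested genes (median log2 fold change -0.25). Against a minimum of 1.2-fold 6 of them were lower, where the share of all tested genes was 6.37%. The purine enzymes PAICS and PFAS fell from 697 and 703 to 466 and 468 CPM and from 179.7 and 179.9 to 120.3 and 115.5 CPM, TK1 of thymidine salvage had a log2 fold change of -0.62 (SE 0.04), and IMPDH2, of guanine nucleotide synthesis, was the member not called. Of 19 ribosome biogenesis genes, 18 were lower (median -0.32), 10 of them against 1.2-fold. Nucleolin (NCL) fell from 1619.8 and 1582 to 1133 and 1132 CPM (log2 fold change -0.50, SE 0.03), and POLR1A, of RNA polymerase I, from 143 and 137 to 105 and 102 CPM (log2 fold change -0.43, SE 0.03). All 8 subunits of the CCT chaperonin, which folds actin and tubulin, were lower (median -0.30; 3 against 1.2-fold), CCT5 at 673 and 669 CPM against 507 and 497 CPM. Cytosolic ribosomal proteins did not follow: 52 of 79 were higher, against 25.2% of all tested genes, and 4 lower, with a median of only 0.12. Against 1.2-fold 1 was higher, and 7 in the fit of all 12 libraries, where 7.13% and 16.4% of all genes tested were higher. Ribosomal protein genes have many processed pseudogenes, so their reads are uncertain; in 67 of 79 UTX-control replicate 2 lay above replicate 1. MYC was lower at -0.21 (SE 0.03), from 303 and 304 to 263 and 261 CPM. Among the 6 activators and partners of its network, MYC included, 3 were higher and 1 lower (median 0.09). Of the 6 genes of its antagonists of the MXD group 5 were higher and 1 lower, MXD4 at 0.38 (SE 0.04). ARRDC3, of the arrestin-domain family, rose from 8.36 and 7.43 to 17.1 and 20.2 CPM (log2 fold change 1.23, SE 0.08). The other tested gene of that family on the list was lower, with a log2 fold change of -0.39.

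Folding and degradation genes were mixed. Of all tested genes 25.2% were higher and 25.3% lower, and against 1.2-fold 7.13% and 6.37%. Of 13 heat shock genes, 8 were lower and 1 higher (median log2 fold change -0.17), but 3 were lower against 1.2-fold. HSP90AA1 fell from 2153 and 2093 to 1618 and 1642 CPM (log2 fold change -0.38, SE 0.03). In the endoplasmic reticulum, 9 of 13 chaperone and folding genes were lower and 3 higher, HSPA5 (BiP) at 333 and 323 CPM against 268 and 272 CPM (log2 fold change -0.28, SE 0.03), whereas 6 of 7 sensor and degradation genes were higher, among them ERN1 (IRE1) at 0.57 (SE 0.04) and HERPUD1, from 24.2 and 23.8 to 36.3 and 37.1 CPM. XBP1 was lower at -0.22 (SE 0.03). Of the lower members in this list, 1 was lower against 1.2-fold. In autophagy and the lysosome, 16 of 23 genes were higher and 2 lower (median 0.23), 5 of them higher against 1.2-fold. GABARAPL1, of the autophagosome membrane, rose from 44.7 and 45.4 to 69.4 and 71.8 CPM (log2 fold change 0.65, SE 0.04), and WIPI1 and the protease gene CTSB had log2 fold changes of 0.80 (SE 0.07) and 0.42 (SE 0.03).

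NF-kB genes rose: 15 of 23 tested members were higher and none was lower (median log2 fold change 0.30). This and the counts below are set against 25.2% of all tested genes higher and 25.3% lower, and 7.13% higher against 1.2-fold. RELB, a subunit of the alternative pathway, rose from 5.67 and 5.40 to 20.5 and 21.01 CPM (log2 fold change 1.90, SE 0.06), and BCL3, a nuclear cofactor, from 0.625 and 0.856 to 2.73 and 3.05 CPM (log2 fold change 2.00, SE 0.16). The inhibitors NFKBIA and TNFAIP3 (A20), which are also targets, rose from 18.3 and 18.3 to 30.3 and 32.6 CPM and from 79.7 and 80.01 to 146 and 147 CPM. In these 4 genes no UTX-KD library overlapped a UTX-control library, as in 73.9% of all tested genes. The chemokine gene CXCL10 was at 0 CPM in UTX-control replicate 1, at 1 read in UTX-control replicate 2, and at 0.397 and 0.344 CPM in UTX-KD. The early response list had 12 of 26 higher and 4 lower, JUN rising from 14.7 and 13.96 to 31.4 and 33.5 CPM (log2 fold change 1.17, SE 0.05); 4 were higher against 1.2-fold. Among p53 targets 13 of 21 were higher and 2 lower (median 0.23). BBC3 (PUMA), a BH3-only inducer of apoptosis, rose from 7.46 and 7.90 to 20.8 and 21.2 CPM (log2 fold change 1.46, SE 0.06), TP53INP1 had a log2 fold change of 1.26 (SE 0.05), and MDM2, the p53 ubiquitin ligase, was lower at -0.23 (SE 0.04). Other BH3-only genes that rose were BMF, from 20.7 and 21.4 to 43.02 and 43.2 CPM (log2 fold change 1.04, SE 0.04), HRK at 2.12 (SE 0.35) and PMAIP1 at 0.47 (SE 0.04), while BCL2L11 (BIM) was lower at -0.21 (SE 0.04). Interferon-stimulated genes had 16 of 29 higher and 5 lower (7 higher against 1.2-fold), IRF7 rising from 8.25 and 8.07 to 14.9 and 15.02 CPM (log2 fold change 0.87, SE 0.06).

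Chromatin genes around UTX moved in both directions. Of 22 genes of UTX, its complexes and Polycomb, 6 were higher (27.3%, near the 25.2% of all tested genes) and 11 lower (50%, against 25.3%). Against 1.2-fold 2 of the latter were lower, where 6.37% of all tested genes were lower. In Polycomb repressive complex 2, which writes the mark that UTX removes, the methyltransferase EZH2 fell from 212 and 207 to 169 and 167 CPM (log2 fold change -0.32, SE 0.03) and PHF19 from 109 and 113 to 80.8 and 75.96 CPM (log2 fold change -0.50, SE 0.03), while PHF1 rose from 61.5 and 60.6 to 82.9 and 81.4 CPM (log2 fold change 0.43, SE 0.03) and EZH1 had 0.16 (SE 0.03). Of 8 partners of the MLL complexes 4 were lower and 1 higher, with KMT2D at -0.18 (SE 0.03) and PAXIP1 at -0.35 (SE 0.03). Of 23 tested HOX genes 7 were higher and 3 lower. HOXB9 rose from 0.0375 and 0.0349 to 0.452 and 0.702 CPM (log2 fold change 3.92, SE 0.46), a fold change made uncertain by UTX-control values near the floor. HOXA13 fell from 1.012 and 1.101 to 0.493 and 0.401 CPM (log2 fold change -1.23, SE 0.21). The HOX count depended on the method, with 2 higher by the Wald test of DESeq2 and 1 against 1.2-fold. Of all genes tested there 17.7% and 7.13% were higher.

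The leukaemia and thymocyte lists moved in both directions, and the T-cell receptor list had more genes higher than lower. Of all tested genes 25.2% were higher and 25.3% lower, and 7.13% were higher against 1.2-fold. The shares of the thymocyte list (27.8% higher, 33.3% lower) and of the NOTCH list (20% and 30%) were near those of all genes. In the TAL1 circuit 7 of 19 genes were higher and 8 lower: GATA3 rose from 91.7 and 92.1 to 124 and 121 CPM (log2 fold change 0.42, SE 0.03), LMO1 fell from 6.68 and 7.29 to 3.95 and 4.11 CPM (log2 fold change -0.79, SE 0.08), ERG was lower at -0.80 (SE 0.19), but not by the Wald test of DESeq2, and RUNX1 was not called. Of 18 thymocyte stage genes 5 were higher and 6 lower, with RAG1, of receptor gene recombination, falling from 142 and 137 to 96.4 and 97.96 CPM (log2 fold change -0.52, SE 0.03) and CD38 rising from 30.9 and 33.1 to 54.02 and 54.4 CPM (log2 fold change 0.76, SE 0.04). The groups did not overlap in RAG1, CD38, GATA3 or LMO1, as in 73.9% of all tested genes. Among 23 receptor and signalling genes 12 were higher and 4 lower (2 higher against 1.2-fold), CD3E at 0.33 (SE 0.03) and CD4 at -0.59 (SE 0.07). In lymphocyte homing, 5 of 13 genes were higher, 2 of them without UTX-control replicate 1. CCR9, the gut-homing chemokine receptor, rose from 2.05 and 2.06 to 11.3 and 11.8 CPM (log2 fold change 2.49, SE 0.08). NOTCH pathway genes had 2 of 10 higher and 3 lower, 5 lower after GC content and length correction and none against 1.2-fold.

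Genes outside these lists were named by the size of their change. GAB2, an adaptor of growth factor receptors, rose from 16.7 and 17.4 to 71.01 and 71.4 CPM (log2 fold change 2.07, SE 0.04, adjusted p = 3.14e-16). MFAP4, of the extracellular matrix, rose from 4.30 and 3.84 to 19.96 and 18.6 CPM (log2 fold change 2.23, SE 0.07), and FUT1, a fucosyltransferase, from 0.262 and 0.245 to 2.22 and 2.48 CPM (log2 fold change 3.19, SE 0.20). In each of these the UTX-KD libraries were close to each other and far above UTX-control. The receptor gene GPR18 rose from 0.475 and 0.437 to 1.70 and 2.01 CPM (log2 fold change 2.01, SE 0.19) and the adhesion gene FLRT1 from 0.400 and 0.384 to 1.52 and 1.68 CPM (log2 fold change 2.02, SE 0.19). By difference in CPM, the elongation factor gene EEF1A1 had one of the larger increases, from 3007 and 3124 to 3831 and 3886 CPM (log2 fold change 0.33, SE 0.03), a change that did not pass against 1.2-fold, and VAT1, a vesicle membrane protein, rose from 505 and 520.0 to 885 and 851 CPM (log2 fold change 0.76, SE 0.03). ACTB, cytoplasmic actin, fell from 5659 and 5622 to 3913 and 3841 CPM (log2 fold change -0.54, SE 0.03). FGFBP2 had 12 and 13 reads in the UTX-control libraries and none in UTX-KD. It was picked for having reads in 1 group only, so a test of these same reads adds no support. In the other direction, GUCY2F had 5 and 6 reads and CCDC42 7 and 3 reads in UTX-KD and none in UTX-control. Both were under the filter and untested in the fit of the 4 UTX libraries. CCDC42 did enter the model of 8 libraries described below, where its difference of 5.56 (SE 1.89) rests on these few reads.

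The same doxycycline dose and time in the line with the TAL1 hairpin gave another pattern, tested as the difference of the 2 log2 fold changes in a single model of 8 libraries. That difference was called for 50.1% of 17605 tested genes. In the TAL1 line alone 26.3% of tested genes were higher and 27.9% lower, and its TAL1-KD replicates differed more from each other than the UTX replicates (chi-square per degree of freedom 42.4 against 4.09 for UTX-KD). ATF4 list genes differed between the lines in 40 of 49, with 14 higher and 22 lower in the TAL1 line (median log2 fold change -0.13, against 0.62 here). ASNS had a log2 fold change of -0.35 (SE 0.08) there and a difference of 2.37 (SE 0.09), MTHFD2 -0.74 (SE 0.10) there and CBS -0.87 (SE 0.09). ASS1 was higher in both lines, at 0.49 (SE 0.11) there, with a difference of 2.07 (SE 0.11). DDIT4, lower here, was at 0.57 (SE 0.14) in the TAL1 line.

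Cholesterol and fatty acid genes were mostly higher in the TAL1 line (28 of 40 higher, 4 lower, median 0.52), and 34 of 40 differed between the lines. DHCR7 was at 1.79 (SE 0.21) there (difference -2.32, SE 0.25, adjusted p = 1.29e-04), HMGCS1 at 0.88 (SE 0.14) and SQLE at 1.31 (SE 0.17). Glycolysis differed in 18 of 21 genes, all with the lower log2 fold change in the UTX line, and the HIF list in 30 of 39. In that list 11 genes were higher and 9 lower in the TAL1 line. Of the 9 metabolic targets, all lower here, 3 were lower there. Of the 3 mitophagy and cell death targets, also all lower here, none was lower there and 1 was higher. AK4 and MIR210HG, with large decreases here, were also lower there, at -1.98 (SE 0.27) and -2.63 (SE 0.21), with differences of -1.57 (SE 0.38) and -0.79 (SE 0.28). LDHA was lower there too, at -0.44 (SE 0.12). BHLHE40 went the other way, at 1.79 (SE 0.21) in the TAL1 line (difference -3.55, SE 0.27, adjusted p = 3.25e-05). Respiratory chain genes were higher in the TAL1 line for 57 of 76 (median 0.57) and differed in 68, and mitochondrial ribosomal protein genes were higher there for 41 of 76 and differed in 57. All 13 heat shock genes were higher there, and all 13 differed, HSPA8 at 1.40 (SE 0.11) against -0.19 (SE 0.03) here.

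Other lists moved in the same direction in both lines. Mitosis genes were lower in 28 of 33 and replication genes in 28 of 36 in the TAL1 line, where HMMR had a log2 fold change of -2.43 (SE 0.17) and CENPE -2.65 (SE 0.16), against -0.68 (SE 0.03) for CENPE here; 14 and 20 members differed. The mitochondrial pseudogenes were lower in 17 of 24 there (median -0.79), and 23 of 24 differed, each with the lower log2 fold change in the UTX line. Humanin-like genes were higher in all 8 tested there, with a median of 2.40, and 7 of 8 differed, each with the lower log2 fold change in the UTX line. RELB and JUN had log2 fold changes of 3.41 (SE 0.10) and 2.12 (SE 0.10) there. CCR9 was at 2.28 (SE 0.11) there, and its difference of 0.18 (SE 0.14) did not pass the test (adjusted p = 0.311).

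**Figure D5:**
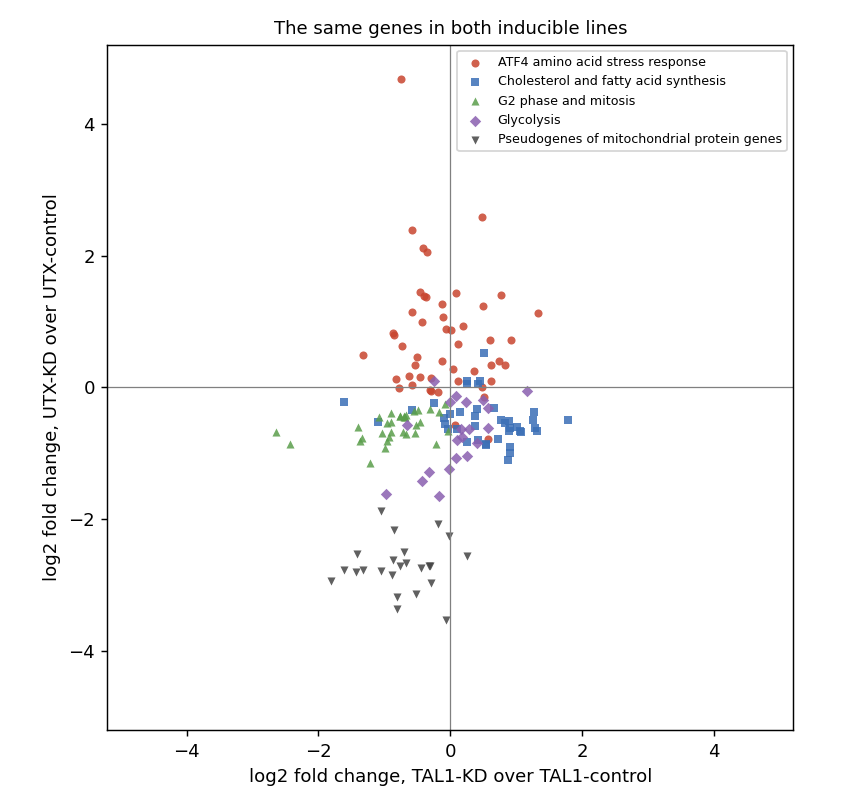
Log2 fold change with doxycycline in the TAL1 line (x axis) and in the UTX line (y axis) for tested members of 5 lists, each point a gene and each line with its own controls. ATF4 list genes lie mostly above 0 on the y axis and on either side of 0 on the x axis, cholesterol genes mostly to the lower right, mitosis genes to the lower left, and the mitochondrial pseudogenes farthest down.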

How the data were processed

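Poly(A)-selected, strand-marking RNA-seq libraries were made with a TruSeq kit from column-purified, DNase-treated RNA, per the labels' protocols. The deposited values are raw read counts per gene, which the authors made with TopHat2 2.0.12 and HTSeq 0.6.1p1 on hg19, per the submitters' processing notes. The annotation, the strand setting and the treatment of reads with several matches are not given in the sources used here, so antisense and near-identical genes are uncertain. The authors' deposited comparison columns were not used, and 0 columns lacked a sample. Symbols were found for 27889 of 29354 gene IDs.

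Counts were fitted with edgeR 4.0.16 (R 4.3.3): filterByExpr, TMM scaling, glmQLFit and glmQLFTest on the 4 UTX libraries alone with group as the only term, Benjamini-Hochberg adjusted p under 0.05. SE is the absolute log2 fold change over the square root of F. TAL1 libraries were fitted likewise, and response differences by an interaction term in 8 libraries. CPM values use TMM-scaled library sizes, which ranged with 59226636 to 82534711 counted reads per UTX library. Replicates of UTX-control and UTX-KD differed by more than sampling noise (chi-square per degree of freedom 2.74 and 4.09). On simulated counts for 16847 genes of the UTX comparison, 67, 67 and 66 genes were changed 1.25-, 1.5- and 2-fold. Of these 70.1%, 77.6% and 83.3% were recovered, with 3 false among 157 calls. In the data 50.5% of genes were called, a far larger share, so these rates do not carry over to the real comparison.

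The members and gene lists (866 entries written out in 39 lists, 16 without an entry in the tables, and 310 added by 7 name patterns) were chosen with earlier results of these data known, so the list counts are descriptions. The text names genes of UTX and TAL1, members of the lists, and, per direction, called genes with the largest log2 fold changes, with the largest CPM differences, with reads in 1 group only, and with opposite calls in the 2 lines. Alternatives were DESeq2 1.42.0 (Wald test, or its size factors in edgeR), other count filters, glmTreat of edgeR, GC content and length correction, all 12 libraries in 1 fit, a stricter adjusted p, a replicate block, and leaving out each library. Promoter windows are RefSeq's, on GRCh38.p14, and no coordinate was moved between builds. The lists searched for motifs hold genes known for the response in question. Motif shares above that of all windows may follow from this choice and are descriptions. The windows of all genes also include genes that were not tested.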

Additional observations from a re-analysis of the deposited data

Results flagged for a closer look

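The results in this section concern genes whose calls were opposite in the UTX and TAL1 lines and whose response difference itself passed an interaction test (edgeR, adjusted over 17605 genes, of which 50.1% passed). Over all 16179 genes tested in both lines 1812 met these conditions, 815 higher and 997 lower in the UTX line. All 46 of them that were named by size of change or described here are given, as the log2 fold change in the UTX line minus that in the TAL1 line. The SEs of these differences come from the model with the same spread for both lines and may be too small.

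Among genes named by size of change, 7 were higher and 1 was lower in the UTX line. FUT1 had a difference of 4.06 (SE 0.22), with an adjusted p of 7.19e-06 and -0.90 (SE 0.15) in the TAL1 line. MFAP4, a matrix protein gene, had a difference of 2.81 (SE 0.10) and was at -0.60 (SE 0.07) in the TAL1 line. SLC6A9, ASNS and CHAC1 of the ATF4 list had differences of 2.93 (SE 0.15), 2.37 (SE 0.09) and 2.49 (SE 0.14). FLRT1 had one of 3.81 (SE 0.32), and the antisense gene L3MBTL2-AS1, whose reads are uncertain, one of 3.74 (SE 0.38). GAPDH was lower in the UTX line and higher in the TAL1 line, at 0.58 (SE 0.16), with a difference of -0.92 (SE 0.15) and an adjusted p of 8.60e-04.

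In the ATF4 list, FGF21, with at most 1 read in a UTX-control library, had a difference of 5.39 (SE 0.73). SESN2, GPT2, STC2 and CBS followed with 1.88 (SE 0.07), 1.76 (SE 0.07), 1.68 (SE 0.12) and 1.67 (SE 0.09). TRIB3, MTHFD2, PHGDH and PSPH had 1.39 (SE 0.14), 1.33 (SE 0.08), 0.93 (SE 0.08) and 0.84 (SE 0.09), and the lower members DDIT4 and EIF2AK1 -1.39 (SE 0.17) and -0.70 (SE 0.08). CD38 had a difference of 2.01 (SE 0.22).

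The cholesterol and fatty acid genes given here were lower in the UTX line, with differences of -2.32 (SE 0.25) for DHCR7, -2.01 (SE 0.16) for HMGCS1, -2.01 (SE 0.20) for SQLE, -1.93 (SE 0.19) for FASN, -1.84 (SE 0.20) for SCD, -1.59 (SE 0.16) for INSIG1, -1.30 (SE 0.16) for ACLY and -0.76 (SE 0.14) for SREBF2. For glycolysis and HIF genes the differences were -3.55 (SE 0.27) for BHLHE40, -1.27 (SE 0.15) for ALDOA, -1.02 (SE 0.08) for KDM3A and -0.73 (SE 0.11) for LDHB. For nuclear genes of mitochondria they were -1.81 (SE 0.11) for HSPE1, -1.32 (SE 0.11) for MRPS28, -1.25 (SE 0.12) for ATP5MC1, -1.11 (SE 0.13) for POLG, -1.09 (SE 0.14) for CYCS and -0.83 (SE 0.14) for SDHA. For folding genes they were -1.62 (SE 0.11) for HSPA8, -1.38 (SE 0.09) for HSP90AA1, -1.29 (SE 0.09) for HSPA5, -0.71 (SE 0.08) for CCT5 and -0.57 (SE 0.08) for XBP1. POLR1A, KMT2D and MYC had -0.76 (SE 0.10), -0.68 (SE 0.09) and -0.54 (SE 0.08). What sets these responses apart was not tested: hairpin, line and culture differ together between the 2 experiments.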

How the results depend on the processing

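No call among the recomputed results reversed under these alternatives. Genes higher numbered 4240 and lower 4269; the Wald test of DESeq2 gave 2776 higher, glmTreat against 1.2-fold gave 1201 higher and 1073 lower, and the fit of all 12 libraries gave 2450 lower, fewer calls by construction for glmTreat and with the cause not tested for the other alternatives. Leaving out each UTX library gave 3443 to 3924 higher and 3559 to 4174 lower, and 6506 to 11324 response differences over the 8 libraries, against 8825. KDM6A had a log2 fold change of -0.08 (adjusted p = 0.103), -0.09 to -0.07 without single libraries, and -0.0932 with an edgeR adjusted p of 0.0408 after GC content and length correction, the only alternative in which it passed. Same-numbered deviations correlated at 0.0383 across genes. This covers all tested genes, also those with few reads, so it cannot decide whether replicate numbers pair the libraries. A replicate block gave 4165 higher, 4179 lower and 8626 response differences, with KDM6A at -0.08. Of the counts of list members called under the alternatives, 461 stayed within 1.5 times and 59 did not, 29 of these under glmTreat and 18 in the fit of all 12 libraries. Over named single genes and alternatives, 2488 verdicts stayed on their side of the threshold and 100 calls were lost, 41 under glmTreat, 17 in the fit of all 12 libraries and 8 each by the Wald test of DESeq2 and at adjusted p 0.01; MRPS30, MRPL10, MRPL49, SCAP, NPC1, VEGFA, CDKN1A and EIF2AK4 lost theirs in several. WARS1 passed after GC content and length correction and SLC2A3 without UTX-control replicate 1. The size factors of DESeq2 shifted the median log2 fold change by -0.0061. Low counts limit FGF21 and CXCL10, each with at most 1 read in a UTX-control library, and HOXB9, which was also near the floor in UTX-control.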

Other observations

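The gene families in this paragraph were chosen after their values were seen. Over all tested genes 25.2% were higher and 25.3% lower in UTX-KD, and 26.3% and 27.9% in the TAL1 line. HLA genes, which encode antigen-presenting molecules, were higher in UTX-KD for 13 of 18 tested and lower for none, with a median log2 fold change of 0.60. HLA-E was at 59.6 and 61.05 CPM in UTX-control and 104 and 103 CPM in UTX-KD (log2 fold change 0.78, SE 0.03). HLA genes are polymorphic and alike, so their reads are uncertain; in the TAL1 line 13 of 18 were higher too. Proteasome subunit genes PSMA to PSMD were lower for 33 of 37 and higher for 1 (median -0.24), PSMD1 at 277 and 270.1 CPM against 189 and 191 CPM, while in the TAL1 line 25 of 37 were higher. Genes named ZNF and a number, most of them zinc finger proteins, were higher for 178 of 376 and lower for 37, and on chromosome 19 for 92 of 184 and 15. In the TAL1 line 83 of 370 were higher and 104 lower, shares near those of all genes tested there. Nucleoporin genes named NUP and a number were lower for 19 of 21 and higher for none (median -0.26), NUP35 falling from 28.4 and 29.04 to 19.9 and 18.9 CPM (log2 fold change -0.56, SE 0.05), and in the TAL1 line 13 were lower.

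A few further lists gave weak or unsteady counts, to be read against 25.2% of all tested genes higher and 25.3% lower. Replication-dependent histone genes, whose mRNAs mostly lack poly(A) tails, were lower for 7 of 18 tested and higher for none, and 2 were lower by the Wald test of DESeq2. NRF2 and thiol redox genes were lower for 7 of 14 and higher for 2, and 4 were lower without UTX-control replicate 2 or without UTX-KD replicate 2. Metal handling genes were higher for 4 of 12 and lower for 2, none of them higher against 1.2-fold. Of 7 GIMAP GTPase genes, 1 was higher and 1 lower, and none was higher without UTX-control replicate 1.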
